A study of Mus musculus with 17 samples.

Results

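The data described here are lung transcriptomes of wild-type (WT) mice that drank water with perfluorooctanoic acid (PFOA) or vehicle, 5 of the 17 libraries of the series. They were chosen by their labels, genotype wildtype with Hi-PFOA (3 libraries, from mice 50, 56 and 65) or vehicle (2 libraries, from mice 107 and 122). Earlier results of these data were known when this choice was made. Of 31245 genes in the deposited table, the 26946 with a total of at least 20 counts over all libraries were tested, and 26073 of these lie on autosomes. WT mice were Sv/129 animals that, per the study's methods, were purchased, whereas the PPARα knockout (KO) mice and the mice with human PPARα in place of their own (KI), 6 libraries each, came from breeding pairs. All mice ate a diet modelled on American intake from 6 weeks of age. PFOA mice drank 6.2 µg/mL PFOA for 14 weeks, vehicle mice drank 0.5% sucrose water, and lungs were frozen whole. Each library is 1 mouse. Of the PFOA mice, 50 was female and 56 and 65 were male, and of the vehicle mice, 107 was female and 122 was male, so in the vehicle group sex and library cannot be told apart.

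PFOA is a long-lived fluorinated surfactant that binds the fatty acid receptor PPARα, and the study asked what it does in lung and whether that depends on the receptor. Lung holds conducting airways, lined by secretory club cells and by multiciliated cells whose beating cilia are built from dyneins, radial spokes and microtubules, and a gas-exchange surface of flat type 1 cells and surfactant-making type 2 cells over capillary endothelium. Resident macrophages, T cells, natural killer (NK) cells and B cells are mixed through it. RNA of the whole organ adds all of these together, so fewer cells of a type and less RNA per cell cannot be told apart in any of the values below. The defining markers of lung were present in all 5 libraries. The surfactant gene Sftpc was at 932 to 3501 CPM (counts per depth unit of a library, here scaled between libraries by TMM), the type 1 marker Ager at 727 to 1276 and the club cell secretoglobin Scgb1a1 at 5653 to 21350. The transcript of the receptor itself, Ppara, was at 6.13 and 7.21 CPM on vehicle and at 5.07, 4.39 and 6.94 CPM on PFOA. In the KO libraries its count was not lower, at 8.82 to 11.8 CPM.

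The vehicle library of mouse 122 stood apart from the other 4. Depth was even, at 7524817 (107) and 7257971 (122) counts on vehicle and 6655398 to 7821503 on PFOA, where 3 counts equal 0.384 to 0.451 CPM. Protein-coding genes held 65.3% of the counts of library 122 against 79.6% in library 107 and 78.5% to 80.4% on PFOA. Ribosomal RNA held 6.77% in library 122 and 2.53% in library 107, and mitochondrial transcripts 10.4% and 5.82%. Among 18961 autosomal genes with at least 1 CPM in a group, 2022 differed more than 2-fold between the vehicle libraries. Library 107 differed more than 2-fold from the mean of the PFOA libraries at 219 genes, and library 122 at 2083. Pairs of PFOA libraries differed so at up to 662 genes. Each comparison is therefore given against both vehicle libraries and against each alone. In the latter, the lone library is assumed to vary like the other groups.

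With edgeR, 0 genes (0.0%) differed between the PFOA and the vehicle group past the limits of the study, a fold change above 2 at an adjusted p below 0.2. The smallest adjusted p was 0.304. At an unadjusted p under 0.05 there were 1981 genes (7.35%), of which 840 read higher on PFOA (3.12% of those tested) and 1141 lower (4.23%). With DESeq2, 24 of all genes tested were called (0.0891%), 6 of them higher (0.0223%) and 18 lower (0.0668%). The edgeR count rested on which vehicle library was used. It was 1659 (889 higher) against library 122 alone and 0 against library 107 alone, where 578 genes had an unadjusted p under 0.05. The direction of the difference mattered too. Of 640 autosomal genes of at least 1 CPM with higher values and an unadjusted p under 0.05, 227 were more than 2-fold above library 107, with a median log2 fold change of 0.75 against 107 and 1.31 against 122. Of 1045 such genes with lower values, 98 were more than 2-fold below library 107, with medians of −0.34 and −1.17. Since the contrast chose these genes, these are descriptions of where the contrast came from. Over all 26946 genes the median log2 fold change was 0.04, at 0.02 against 107 and 0.11 against 122. An exact permutation test of 3 against 2 libraries cannot go below p = 0.1.

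**Figure D1:**
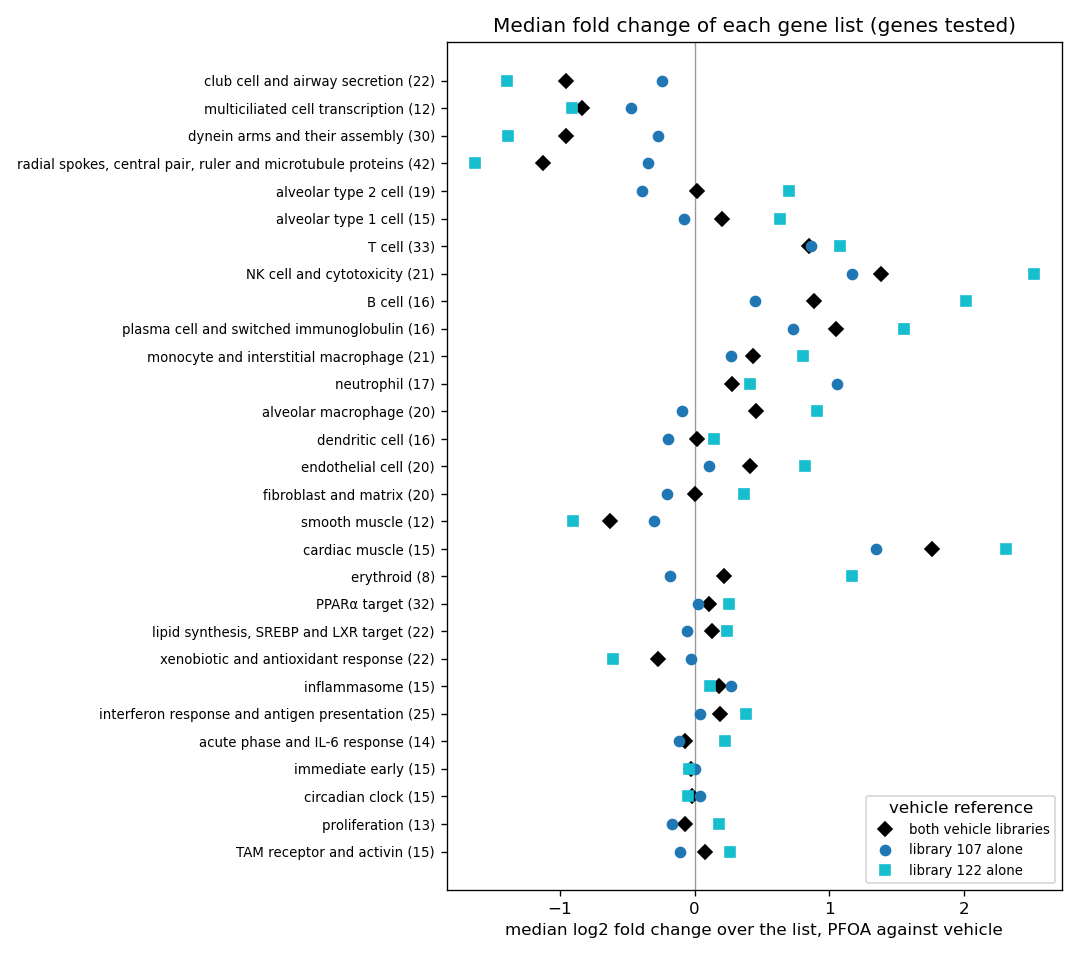
Median log2 fold change (x axis, PFOA against vehicle) of the tested genes of each of 29 gene lists (y axis, number of genes in brackets), against both vehicle libraries (black diamonds), library 107 alone (blue circles) and library 122 alone (cyan squares). The T cell list sits at 0.85, 0.87 and 1.08, whereas the 4 airway lists lie nearer to 0 against library 107 than against library 122 and the alveolar type 2 list changes side.

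Genes of airway secretory cells had lower values on PFOA, by an amount that depended on the vehicle library. Of 22 genes of the club cell and airway secretion list, 12 had lower values at an unadjusted p under 0.05 (4.23% over all genes), 0 had higher values, and 0 passed the adjusted threshold of edgeR. The gene lists, here and below, were drawn up with earlier results of these data known. This list holds genes that the study reported as altered in WT lung, such as Scgb1a1 and Cyp2f2. Its share of low p is therefore a description and is not independent of the data. Scgb1a1 (chr19:9083636-9087958), the most abundant club cell secretory protein, was at 9980 and 21350 CPM on vehicle (107 and 122) and at 5800, 5653 and 7199 CPM on PFOA. The groups did not overlap, as in 11 of the 22 genes, where libraries without overlap and lower on PFOA made up 10.9% of all genes tested. The log2 difference of Scgb1a1 was −1.33 ± 0.32 (SE, edgeR adjusted p = 0.456), at −0.69 against library 107 and −1.78 against library 122. In KO and KI vehicle mice it ranged from 5483 to 8383 CPM, below both WT vehicle libraries.

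Enzymes of club cells followed the same order of libraries. The aldehyde dehydrogenase Aldh1a7 was at 100 and 198 CPM on vehicle and at 58.4, 64.6 and 73.5 CPM on PFOA, a log2 difference of −1.19 ± 0.26 (edgeR adjusted p = 0.304, DESeq2 adjusted p = 0.043). The cholecystokinin receptor gene Cckar was at 42.0 and 83.4 CPM on vehicle and at 29.5, 28.6 and 28.1 CPM on PFOA, and Cyp2f2, the club cell cytochrome P450, at 1306 and 3151 CPM on vehicle and 960, 1012 and 1267 CPM on PFOA. For all 3 the groups did not overlap, with library 107 the nearer vehicle library. Over the list the median log2 fold change was −0.95, at −0.24 against library 107 and −1.40 against 122. Genes of mucous and antimicrobial secretion did not share this order. The gel-forming mucin Muc5b was at 100 and 118 CPM on vehicle and 16.1, 34.7 and 221 CPM on PFOA, and the secreted antibacterial protein Bpifa1 had 0 counts in both vehicle libraries, 0.127 and 0 CPM in libraries 50 and 56, and 16.2 CPM in library 65. Scgb3a1, another secretoglobin, was likewise highest in library 65, at 45.6 CPM against 1.01 to 4.91 CPM in the other 4. DESeq2 called Bpifa1 although its value came from library 65.

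Genes that build motile cilia had lower values on PFOA nearly throughout the 3 ciliary lists. Among 42 radial spoke, central pair, ruler and microtubule genes, 42 were lower and 39 had an unadjusted p under 0.05, against 4.23% over all genes. Among 30 dynein arm and assembly genes, 29 were lower and 21 had an unadjusted p under 0.05, and among 12 regulators of the multiciliated fate 11 and 5. None of the 84 passed the adjusted edgeR threshold. These lists hold genes that the study reported as altered in WT lung, such as Tekt4 and Foxj1. Their shares of low p were therefore in part fixed beforehand. The size again followed the vehicle library, with medians of −1.13, −0.95 and −0.84 on the log2 scale for these lists against both libraries, −0.34, −0.27 and −0.47 against library 107, and −1.63, −1.38 and −0.91 against library 122.

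Foxj1, the master regulator of motile ciliogenesis, was at 28.6 and 69.9 CPM on vehicle and at 21.7, 19.6 and 23 CPM on PFOA (log2 −1.20 ± 0.32, edgeR adjusted p = 0.456). Trp73, a p53 relative needed for multiciliated cells, overlapped between the groups, at 7.73 and 23.8 CPM on vehicle and 6.72, 4.68 and 8.10 CPM on PFOA. Tekt4 (chr17:25454615-25476602), which encodes a tektin filament protein of the axoneme, was at 7.73 and 19.8 CPM on vehicle and 3.93, 3.36 and 5.91 CPM on PFOA (log2 −1.63 ± 0.39, edgeR adjusted p = 0.456). Ttc12, a cytoplasmic dynein assembly factor, was at 18.9 and 39.5 CPM on vehicle and at 13.6, 12 and 12.8 CPM on PFOA. Neither gene overlapped between groups. The dynein heavy chain genes differed in this. Dnah7b did not overlap, at 25.6 and 45.4 CPM on vehicle and 16.7, 18 and 18.9 CPM on PFOA. Dnah2 was at 27.2 and 52.2 CPM on vehicle and at 27.0, 18.1 and 29.9 CPM on PFOA, so that library 107 lay within the PFOA values, and Dnah1 was at 35.4 and 78.1 against 25, 24.3 and 41.8 CPM. Ccdc189, at 12.4 and 24.1 CPM on vehicle and 6.21, 8.92 and 8.10 CPM on PFOA, overlaps Phkg2 on the other strand. Since the use of strand in counting is not stated in the sources used here, its counts could hold reads of Phkg2. The same doubt holds for other genes described here that an annotated gene overlaps on the other strand, namely Cyp2f2, Trp73, Dnah1, Dnah2, Pifo, Cd22, Cd27, Cd3e, Csf1r, Cyp2s1, Gm3417, Il12rb2 (Serbp1), Il27ra (Palm3), Lef1, Lrtm2, Mertk, Myh6, Nlrc5, Prkcq, Tap1, Usp18 and Zmynd12 (Rimkla).

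Promoters of the ciliary genes held a sequence feature more often than promoters of all genes. Since the ciliary lists were drawn up with earlier results known, this is a description and no independent support for the values. RFX factors, which act with Foxj1 in ciliated cells, bind an inverted repeat called the X-box, whose arms read GTTGCC. Among RefSeq promoters (GRCm38.p6, 250 bases before to 50 after the start, read on both strands), the arm occurred in 35 of the 70 ciliary genes with a promoter sequence (50.0%), against 14.1% of all 27025 genes, 5 of 37 T cell and NK cell genes (13.5%) and 0 of 14 airway secretion genes. The paired form, GTNNCC and GGNAAC with 2 bases between them, can contain the arm and occurred in 7 of the 70 and in 1.49% of all genes. In 5 of the 7 it lay wholly before the RefSeq start. For Tekt4 and Pifo the printed window lies inside the longer gene of the GENCODE annotation, and for Deup1 it does in part. These are printed 5′ to 3′ on the strand of the gene, as 60 bases each with the paired form in capitals (in Ccno it reads so on the opposite strand), to show where the repeat sits in genes of the group with lower values.
Pifo (chr3:106001498-106001557, minus strand): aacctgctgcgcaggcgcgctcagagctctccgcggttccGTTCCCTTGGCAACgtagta
Deup1 (chr9:15627897-15627956, minus strand): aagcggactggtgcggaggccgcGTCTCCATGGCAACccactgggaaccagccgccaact
Ccdc151 (chr9:22002635-22002694, minus strand): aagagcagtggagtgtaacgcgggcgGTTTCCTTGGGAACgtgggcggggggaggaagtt
Ccno (chr13:112987560-112987619, plus strand): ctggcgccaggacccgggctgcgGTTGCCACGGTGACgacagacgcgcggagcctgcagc
Tekt4 (chr17:25471407-25471466, plus strand): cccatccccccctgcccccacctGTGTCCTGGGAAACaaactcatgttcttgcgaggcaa
These genes did not behave alike across libraries. Deup1, which builds the structures from which centrioles multiply, was at 3.60 and 4.10 CPM on vehicle and 1.01, 2.92 and 2.06 CPM on PFOA, with no overlap and similar vehicle libraries, whereas the cyclin-like Ccno overlapped, at 2.40 and 1.47 CPM against 2.03, 0.292 and 1.16 CPM. Pifo was at 4.93 and 10.3 CPM on vehicle and at 2.53, 2.92 and 5.53 CPM on PFOA, and Ccdc151, a dynein docking gene, at 6.26 and 13.6 CPM against 5.20, 6.29 and 4.24 CPM. Both overlapped with library 107. The letters are a description, and binding was not measured here.

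**Figure D2:**
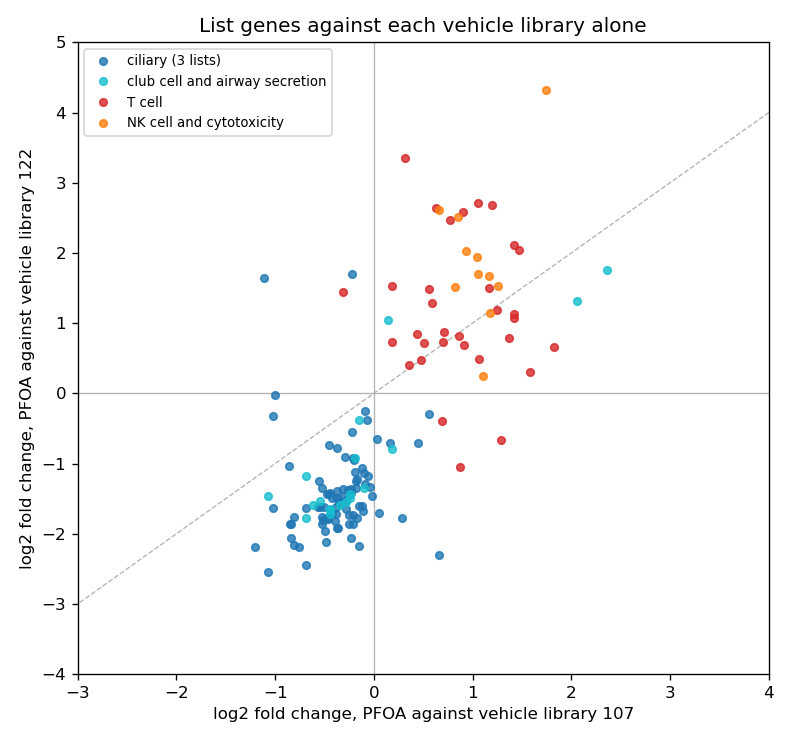
Log2 fold change of PFOA against vehicle library 107 alone (x axis) and against library 122 alone (y axis) for genes of the 3 ciliary lists (84, blue), the airway secretion list (19 of 22, cyan), the T cell list (32 of 33, red) and the NK cell list (11 of 21, orange). Genes with 0 counts in a vehicle library are not drawn, the dashed line marks equal values, and most ciliary genes lie below it and close to 0 on the x axis, whereas T cell genes lie on both sides of it.

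Smooth muscle genes had lower values in 12 of 12 cases, 6 at an unadjusted p under 0.05 (4.23% over all genes) and 0 past the adjusted edgeR threshold. Their median log2 fold change was −0.63 (−0.30 against library 107, −0.90 against 122). Lmod1, which nucleates actin filaments in smooth muscle, was at 52.1 and 104 CPM on vehicle and at 28.8, 36.3 and 50.1 CPM on PFOA. Enteric actin Actg2 was at 60.9 and 118 CPM on vehicle and at 21.5, 29.8 and 59.4 CPM on PFOA. In both genes library 65 lay just below library 107. Acta2, the vascular and airway actin, overlapped, at 252 and 343 CPM against 139, 168 and 263 CPM. Fibroblast and matrix genes had a median of 0.01 with 0 of 20 at an unadjusted p under 0.05. The fibrillar collagen Col1a2 was at 345 and 326 CPM on vehicle and at 283, 360 and 277 CPM on PFOA.

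In the alveoli the direction depended on the vehicle library. All 19 alveolar type 2 genes were lower on PFOA against library 107 and 16 were higher against library 122, with medians of −0.39 and 0.70 on the log2 scale. Sftpc was at 3501 and 932 CPM on vehicle and between them on PFOA, at 2374, 2700 and 2166 CPM. Ager, the receptor that marks type 1 cells, was at 1276 and 727 CPM on vehicle and at 1160, 1191 and 1028 CPM on PFOA. An exception was the epithelial mucin Muc1, with similar vehicle libraries at 165 and 152 CPM and lower values on PFOA at 116, 110 and 114 CPM, without overlap (log2 −0.48 ± 0.19, unadjusted p = 0.0187, edgeR adjusted p = 0.579). All 20 endothelial genes were higher on PFOA, 0 of them at an unadjusted p under 0.05. Their median was 0.41, at 0.11 against library 107 and 0.82 against 122. Cdh5, the junctional cadherin of vessels, was at 664 and 334 CPM on vehicle and 745, 681 and 725 CPM on PFOA.

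T cell genes had higher values on PFOA, and here the vehicle libraries were closer to each other. Of 33 genes, 32 were higher and 17 had an unadjusted p under 0.05 (3.12% over all genes). Groups did not overlap in 24 of 33, where libraries without overlap and higher on PFOA made up 11.6% of all genes tested. None passed the adjusted edgeR threshold. The list holds genes that the study reported as altered in WT lung, such as Prkcq and Cd27, so these shares were in part fixed beforehand. The list summed to 146 and 127 CPM on vehicle and to 287, 212 and 237 CPM on PFOA. The median log2 fold change was 0.85, at 0.87 against library 107 and 1.08 against 122 (0.88 with the gene at 0 counts there set to its bound of 3 counts). Without library 50 it was 0.71, and without 56 or 65 it was 0.95 and 0.98. Between the females (50 against 107) the median difference of log2 CPM was 1.01, and between the males (56 and 65 against 122) it was 0.82. Other lists were less even in this split. The female and male medians were −0.60 and −1.33 for airway secretion, −0.55 and −1.55 for radial spoke genes and 0.617 and 1.365 for NK cell genes. For cardiac muscle genes they were −0.80 and 1.72. In KO and KI vehicle libraries the T cell list summed to 167 to 236 CPM, above both WT vehicle libraries.

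Prkcq (chr2:11172108-11301222), the protein kinase C that links the T cell receptor to NF-κB, was at 7.06 and 9.01 CPM on vehicle and 17.7, 18.4 and 20.8 CPM on PFOA. Every PFOA library was nearly or more than 2-fold above each vehicle library, and the log2 difference of 1.25 ± 0.22 had the smallest edgeR p of the genes described here (unadjusted p = 1.8e-05, adjusted p = 0.304, DESeq2 adjusted p = 0.0071). Cd27, a costimulatory receptor, was at 1.87 and 0.655 CPM on vehicle and at 5.58, 2.92 and 4.37 CPM on PFOA, and overlaps Vamp1 on the other strand. Lef1, a transcription factor of naive T cells, was at 14.4 and 8.84 CPM on vehicle and 25, 19.3 and 20.6 CPM on PFOA. The receptor chain Cd3e was at 4.66 and 1.15 CPM on vehicle and 8.24, 6.58 and 6.94 CPM on PFOA. Its neighbour Cd3d did not follow, at 2.80 and 0.819 CPM against 2.79, 2.19 and 1.80 CPM. Both helper and cytotoxic coreceptors read higher in most libraries. Cd4 was at 3.73 and 1.15 CPM against 7.6, 5.56 and 6.04 CPM without overlap, and Cd8a was at 2.80 and 1.47 CPM against 4.94, 4.82 and 2.70 CPM with overlap. Lck, the kinase that starts receptor signalling, was at 2.93 and 3.60 CPM on vehicle and 8.87, 5.70 and 8.99 CPM on PFOA.

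**Figure D3:**
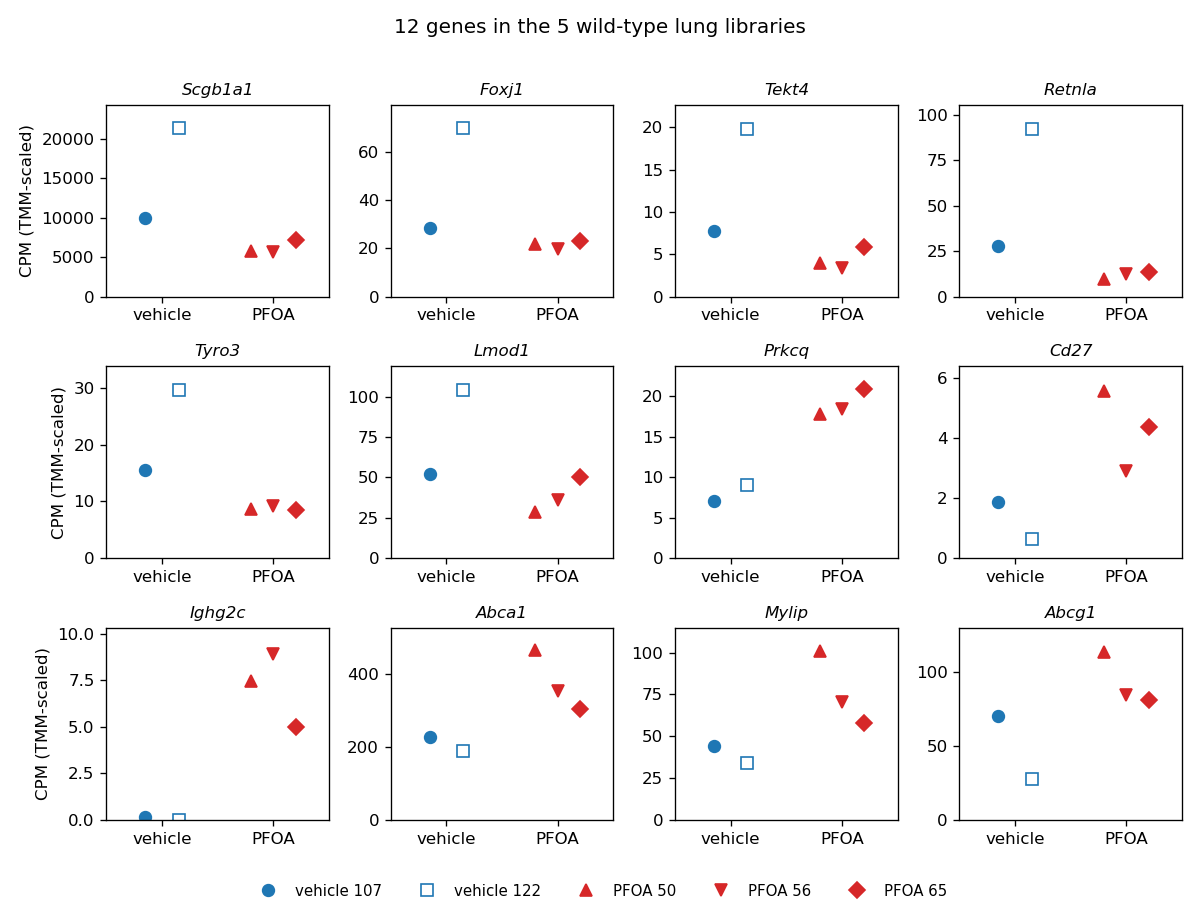
TMM-scaled CPM (y axis, from 0) of 12 genes in the 5 WT libraries, with vehicle in blue (circle 107, open square 122) and PFOA in red (50, 56 and 65 by symbol). In Scgb1a1, Foxj1, Tekt4, Retnla, Tyro3 and Lmod1 library 122 is far above the rest, whereas in Prkcq, Abca1 and Mylip the vehicle libraries lie close together and apart from PFOA.

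NK cell genes were few in counts and went the same way. Their list too holds genes that the study reported as altered in WT lung, such as Ncr1 and Ccl5. Of 21 tested genes 19 were higher, 11 had an unadjusted p under 0.05 (3.12% over all genes) and 13 did not overlap (11.6% over all genes), while Gzmk, Ccl4 and Xcl1 did not reach 20 counts. The list summed to 19.1 and 8.52 CPM on vehicle and to 37.3, 34.1 and 44.1 CPM on PFOA. Its median log2 fold change was 1.38, at 1.17 against library 107 and 2.52 against library 122, where 8 of the 21 genes had 0 counts. With such genes at their bound these medians were 1.05 and 1.53. Ncr1, the activating receptor NKp46, had 3 counts in the vehicle libraries and 45 in the PFOA libraries, a ratio of 9.995 per total counts (95% exact interval 3.21 to 50.3, counting error only). Klrk1, the receptor NKG2D, was at 1.87 and 1.31 CPM on vehicle and 4.31, 2.63 and 5.65 CPM on PFOA. The killing proteins granzyme A (Gzma, 2.13 and 1.15 CPM against 4.06, 2.78 and 6.43 CPM) and perforin (Prf1, 1.60 and 0.491 CPM against 2.91, 3.22 and 2.57 CPM) did not overlap either. In KO and KI vehicle lungs the list summed to 38.8 to 71.8 CPM, so libraries 50 and 56 lay just below that range, library 65 within it and both WT vehicle libraries well below it.

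B cell genes were higher in 14 of 16 cases, with 8 not overlapping (11.6% over all genes) and 0 at an unadjusted p under 0.05. Their median was 0.89, at 0.45 against library 107 and 2.01 against 122 (1.86 with bounds). The heavy chain Ighm was at 17.9 and 9.01 CPM on vehicle and 57.3, 22.4 and 25.3 CPM on PFOA, and Cd22, which dampens the B cell receptor, was at 4.40 and 2.46 CPM against 9.0, 8.62 and 7.33 CPM. Of 16 plasma cell and switched immunoglobulin genes, 14 were higher. Of these, 6 had an unadjusted p under 0.05 (3.12% over all genes) and 9 did not overlap (11.6% over all genes). The median of the list was 1.05 (0.73 against library 107, 1.55 against 122, 1.40 with bounds). Ighg2c had 1 count in the vehicle libraries and 159 in the PFOA libraries, at 7.48, 8.92 and 5.01 CPM (ratio 106, 95% exact interval 18.7 to 4211, counting error only; edgeR adjusted p = 0.386, DESeq2 adjusted p = 0.14). Ighg2b was at 0.533 and 0.164 CPM on vehicle and at 6.97, 5.55 and 3.08 CPM on PFOA. In KO and KI the Ighg2c range was 0.127 to 0.879 CPM on vehicle and 0 to 4.93 CPM on PFOA, so each WT PFOA library was above those of the other genotypes. Ighg1 was set by library 50, at 73.8 CPM against 0.400 to 4.75 CPM in the other 4. The joining chain of IgA and IgM, Jchain, was at 4.26 and 7.04 CPM on vehicle and at 18.8, 9.65 and 22.1 CPM on PFOA, and the light chain Igkc at 19.3 and 23.3 CPM against 126, 36.3 and 67.5 CPM. Igha itself overlapped, at 11.8 and 18.5 CPM against 12.2, 24.7 and 36.2 CPM. Immunoglobulin constant genes are near-copies of each other, and how the estimation split their reads was not tested.

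**Figure D4:**
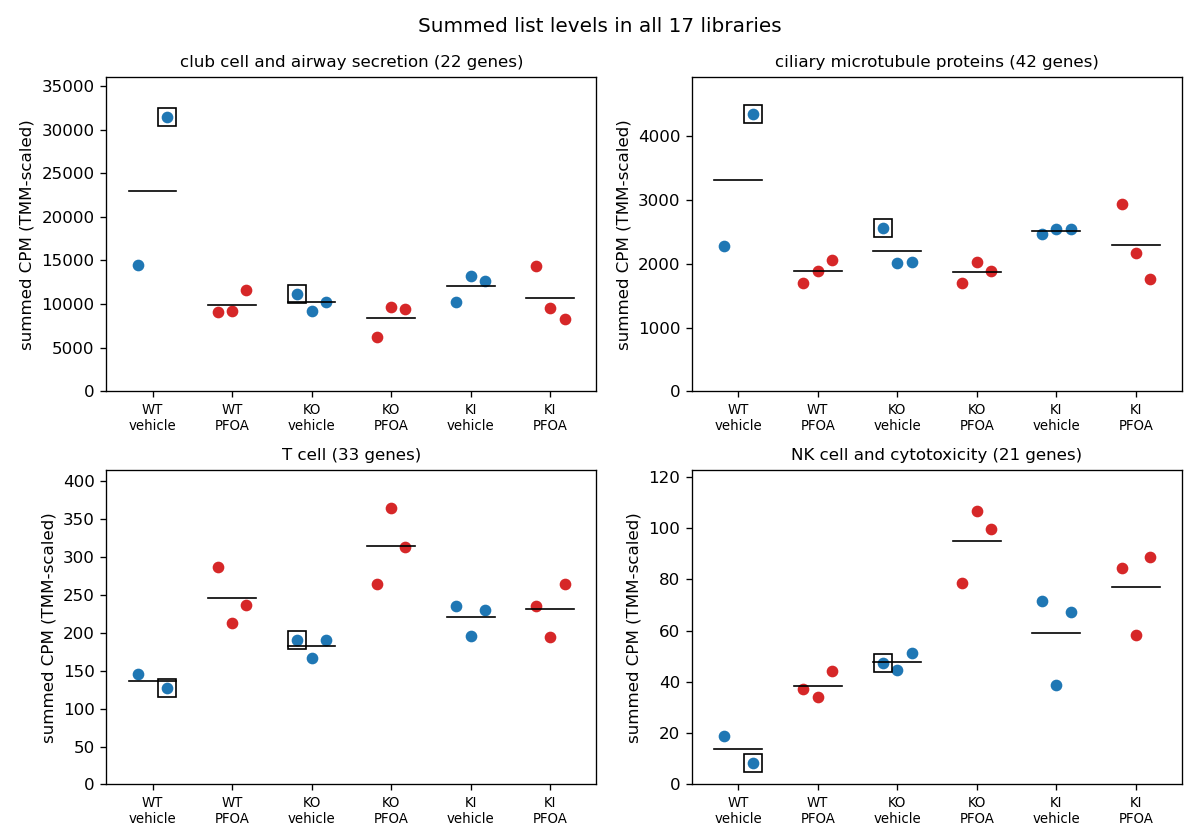
Summed TMM-scaled CPM (y axis, from 0) of 4 gene lists in each of the 17 libraries by group, with vehicle in blue, PFOA in red, lines at group means, and squares around vehicle libraries 122 (WT) and 137 (KO), whose protein-coding share was low. WT vehicle is lowest in T cell and NK cell genes, and in both airway panels library 122 lies above every other library.

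Myeloid lists were described one by one, and differences between them were not tested. Monocyte and interstitial macrophage genes were higher in 17 of 21 cases, 3 at an unadjusted p under 0.05 (3.12% over all genes). Their median was 0.44 (0.27 against library 107, 0.80 against 122). Ccr2, the receptor that brings monocytes into tissue, was at 19.2 and 18 CPM on vehicle and 32.7, 34.2 and 27.5 CPM on PFOA, and Csf1r, the growth factor receptor of macrophages, at 70.9 and 60.8 CPM against 90.3, 89.6 and 87.4 CPM. Plac8 was at 1.60 and 0.819 CPM on vehicle and 5.07, 4.09 and 5.01 CPM on PFOA. For these 3 the groups did not overlap. Neutrophil genes gave 11 of 17 higher, 1 of them at an unadjusted p under 0.05 (3.12% over all genes). Their median was 0.28 (1.06 against library 107 and 0.41 against 122, or 0.87 and 0.25 with bounds). The calprotectin subunit S100a9 was at 0.799 and 1.80 CPM against 4.43, 1.46 and 3.34 CPM. Alveolar macrophage genes were higher in 15 of 20 cases. At an unadjusted p under 0.05, 2 were higher and 2 lower (3.12% and 4.23% over all genes). Their median was 0.46, at −0.09 against library 107 and 0.91 against 122. Against most of this list, Retnla (chr16:48842551-48844461) was lower on PFOA. Retnla, a secreted resistin-like protein of alternatively activated macrophages and airway epithelium, was at 27.7 and 92.1 CPM on vehicle and at 9.88, 12.3 and 13.8 CPM on PFOA. It was more than 2-fold below each vehicle library by the fit, at −1.21 against 107 and −2.94 against 122 (−2.32 ± 0.48 against both, edgeR adjusted p = 0.304, DESeq2 adjusted p = 0.035). KO and KI vehicle libraries spanned 8.58 to 41.0 CPM, a range that holds library 107 and all WT PFOA libraries but not library 122.

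The summed level of cardiac muscle genes was highest in library 65 among the WT libraries. The 15 cardiac genes summed to 8195 CPM there and to 669 to 1296 CPM in the other 4 WT libraries, and KO and KI vehicle libraries reached 13470 CPM. Myh6, a cardiac myosin, was at 589 and 275 CPM on vehicle and 273, 432 and 3398 CPM on PFOA. The list median of 1.76 became −0.29 without library 65, which was also the library with the highest Bpifa1, Muc5b and Fabp4. The fatty acid carrier Fabp4 was at 60 CPM there and at 6.29 to 13.6 CPM in the other 4. Cardiac muscle also uses fatty acid oxidation genes, so PPARα target values of library 65 are given separately below. The part of cardiac muscle RNA in them, and the source of that RNA, was not tested.

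Target genes of PPARα, which in liver raise fatty acid oxidation on PFOA, showed a median log2 fold change of 0.11 over 32 tested genes, 0.02 against library 107, 0.25 against 122 and −0.01 without library 65. Of these, 1 had an unadjusted p under 0.05, with a higher value (3.12% over all genes). The sensitive liver targets Cyp4a10, Cyp4a14 and Cyp4a31, as well as Creb3l3 and Fgf21, did not reach 20 counts. Cpt1a, the gate of mitochondrial fatty acid import, was at 128 and 104 CPM on vehicle and 137, 137 and 124 CPM on PFOA, a log2 difference of 0.20 ± 0.26. Angptl4, a lipase inhibitor, was at 68.3 and 54.2 CPM against 72.0, 60.2 and 75.2 CPM. Pdk4, which spares glucose, was at 36.0 and 32.8 CPM on vehicle and 34.3, 23.1 and 90.3 CPM on PFOA, with the high value in library 65. All 3 overlapped between groups. The gene with the smallest p, Hadhb of the mitochondrial trifunctional protein, was at 20.6 and 11.6 CPM on vehicle and 22.9, 26.5 and 33.4 CPM on PFOA.

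Single cholesterol handling genes were separated between the groups in both directions, while their list as a whole was near the background. Of 22 genes of the lipid synthesis, SREBP and LXR list, 14 were higher and 8 lower, 3 did not overlap in each direction (11.6% higher and 10.9% lower over all genes), and the median was 0.13, at −0.05 against library 107 and 0.24 against 122. The 3 with higher values at an unadjusted p under 0.05 (3.12% over all genes) are known targets of the sterol sensor LXR. Abca1 (chr4:53030787-53159895), the cholesterol exporter, was at 228 and 190 CPM on vehicle and at 465, 355 and 303 CPM on PFOA (log2 0.84 ± 0.29, unadjusted p = 0.00961, edgeR adjusted p = 0.544). Abcg1, its partner in export, was at 70.3 and 27.5 CPM against 113, 84.5 and 81.0 CPM. Mylip, a ubiquitin ligase induced by LXR, was at 44.4 and 34.1 CPM against 101, 70.5 and 57.8 CPM (log2 0.96 ± 0.30, edgeR adjusted p = 0.494). Sqle of cholesterol synthesis was lower, at 27.2 and 25.4 CPM against 13.8, 20.8 and 19.3 CPM. None of these 4 overlapped between groups, so each necessarily lay on the same side of each vehicle library alone. In the KO and KI libraries Abca1 was at 85.0 to 189 CPM on vehicle and 162 to 402 CPM on PFOA.

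Genes of xenobiotic metabolism were lower in 19 of 22 cases, 5 at an unadjusted p under 0.05 (4.23% over all genes). Their medians were −0.03 against library 107 and −0.61 against 122. Cyp2s1, an airway cytochrome P450, was at 112 and 201 CPM on vehicle and at 81.9, 87.4 and 86.1 CPM on PFOA. Among 15 inflammasome genes 1 had an unadjusted p under 0.05, with a higher value (3.12% over all genes). It was Naip2, at 5.33 and 4.10 CPM against 6.84, 7.6 and 6.30 CPM. Of 25 interferon and antigen presentation genes, 3 had higher and 1 had lower values at this level (3.12% and 4.23% over all genes). Nlrc5, the transactivator of MHC class I, was at 7.73 and 8.52 CPM on vehicle and at 18.2, 13.3 and 17.2 CPM on PFOA. Tap1, a subunit of the transporter that supplies peptides to these molecules, was at 18.9 and 20.8 CPM against 34.7, 26.6 and 30.8 CPM. Tap1 overlaps Psmb9 on the other strand. Neither gene overlapped between groups, while the classical interferon response gene Ifit1 did, at 14.0 and 14.1 CPM against 11.2, 11.8 and 14.4 CPM, and Usp18, which ends interferon signalling, was lower at 12.4 and 18.8 CPM against 9.50, 11.4 and 9.12 CPM. Of the TAM receptors that clear dying cells, Tyro3 was lower, at 15.5 and 29.6 CPM on vehicle and 8.74, 9.21 and 8.48 CPM on PFOA. Axl was at 99.0 and 91.4 CPM against 108, 113 and 118 CPM, and Mertk at 97 and 80.1 CPM against 113, 110 and 105 CPM, higher without overlap. The activin subunit Inhbb was at 21.2 and 29.0 CPM against 12.8, 11.8 and 11.4 CPM (log2 −1.06 ± 0.22, edgeR adjusted p = 0.304, DESeq2 adjusted p = 0.043). Further lists held acute phase (14), immediate early (15), circadian clock (15), proliferation (13), dendritic cell (16) and erythroid (8) genes. Together they had 1 gene at an unadjusted p under 0.05 (7.35% over all genes), in the acute phase list. Their medians were between −0.07 and 0.22.

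A stricter description asks which genes were more than 2-fold apart from each vehicle library alone, with no overlap. Over all genes tested, 8.22% were more than 2-fold higher against each vehicle library and 1.68% more than 2-fold lower. Those shares include genes near 0 counts and genes that overlap. Among 13959 protein-coding autosomal genes of at least 1 CPM in a group, 189 were so higher and 75 lower. With no overlap required as well, 111 of these 13959 genes were higher and 72 lower. By smallest p, those higher included Prkcq, Ncr1, Cd27 and Plac8, whose values are given above. Ccl5, a chemokine that attracts T cells, was at 1.07 and 0.164 CPM on vehicle and 4.43, 2.34 and 3.98 CPM on PFOA. Il27ra, the receptor of interleukin 27, was at 2.66 and 2.46 CPM on vehicle and 7.6, 5.41 and 7.33 CPM on PFOA. Il12rb2, a receptor chain for interleukin 12, was at 1.47 and 0.655 CPM against 3.67, 3.65 and 3.08 CPM. Cd226, an activating receptor of T and NK cells, was at 2.40 and 1.47 CPM against 6.59, 3.95 and 8.74 CPM. Dhrs9, a retinol and steroid dehydrogenase, was at 0.400 and 0.328 CPM against 2.15, 1.90 and 2.19 CPM. Lrtm2 was at 5.99 and 5.57 CPM against 13.3, 14.0 and 14.5 CPM and lies within Cacna2d4 on the other strand.

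Those lower were led, by smallest p, by Retnla, Gm3417, Itih2, Zmynd12 and Tex26. Gm3417 was at 1.73 and 15.1 CPM on vehicle and 0.38, 0.731 and 0 CPM on PFOA, and overlaps 9030025P20Rik on the other strand. Zmynd12 was at 1.2 and 4.1 CPM against 0.38, 0.292 and 0.514 CPM, and Tex26 at 1.2 and 4.1 CPM against 0.253, 0.146 and 0.514 CPM. Itih2, a hyaluronan-binding inhibitor chain, was at 5.06 and 11.1 CPM on vehicle and 1.90, 2.05 and 2.57 CPM on PFOA. Ccdc65, part of the nexin link between ciliary microtubules, was at 9.99 and 15.2 CPM against 3.55, 4.39 and 6.81 CPM, and Ccdc81 at 12.7 and 19.7 CPM against 4.69, 6.58 and 5.53 CPM. Pcsk1, a prohormone-cleaving protease, was at 2.26 and 6.22 CPM against 1.14, 0.439 and 0.899 CPM. Ctxn1 had the closest vehicle libraries of these, at 7.59 and 9.17 CPM against 3.29, 3.51 and 4.37 CPM. The ammonium transporter gene Rhbg had 17 counts on vehicle and 2 on PFOA. Gm8750, a processed pseudogene that DESeq2 called, was at 5.99 and 7.04 CPM on vehicle and at 0.507, 0.585 and 0 CPM on PFOA, and its range of 0.281 to 8.29 CPM in KO and KI vehicle libraries covered both groups.

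The WT difference was compared with the mean of the KO and KI differences in the same fit. No gene passed the adjusted threshold with edgeR, 1586 (5.89%) had an unadjusted p under 0.05, and DESeq2 called 3. Against library 122 alone the edgeR count was 623 and against library 107 alone it was 0. The genes with low unadjusted p included Retnla, with −2.65 ± 0.58 for WT minus KO and KI on the log2 scale (unadjusted p = 0.000214, edgeR adjusted p = 0.824). Mylip and Abca1 differed from KO and KI by −0.04 and 0.16 (unadjusted p = 0.90 and 0.64). The T cell and NK cell lists had medians of 0.48 and 0.66 for this difference, with 6 of 33 and 4 of 21 genes at an unadjusted p under 0.05. The 42 radial spoke and microtubule genes had a median of −0.92 and 21 such genes, and both WT vehicle libraries enter these values.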

How the data were processed

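The authors prepared stranded libraries of total RNA, trimmed the reads, aligned them to mm10 with STAR 2.6, and quantified genes by expectation maximization in Partek Flow. They deposited estimated counts per gene (29.9% of the values not whole), without normalization. How the strand was used is not given in the sources used here. Counts were rounded, genes with a total under 20 (4299) were left out, and edgeR 4.0.16 (R 4.3.3) was fitted with TMM factors and the quasi-likelihood test to 1 coefficient per group over 17 libraries, with Benjamini-Hochberg adjustment. DESeq2 1.42.0 was an alternative. The study used DESeq2. Columns outside the sample list numbered 0. Of the gene names, 96.7% were found in GENCODE M21 of the same build, whose coordinates are given.

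The libraries and gene lists were chosen with earlier results of these data known, and several lists hold genes that the study reported as altered in WT lung. Named were the first 2 tested members of each list and the 3 with the smallest p, up to 12 autosomal protein-coding genes per direction that were more than 2-fold from each vehicle library without overlap, and up to 10 called by DESeq2. Others (Cyp2f2, Muc5b, Fabp4, Cd4, Cd8a, Lck, Gzma, Prf1, Igkc, Jchain, Angptl4, Pdk4, Sqle, Ifit1, Mertk, and Pifo, Deup1, Ccdc151 and Ccno with their promoters) were picked with their values in view. The libraries are separate mice, and replicate pairs differed by more than sampling noise (smallest chi-square per degree of freedom 6.28). The script was tested on simulated counts. The X-linked and other non-autosomal genes (873) entered the fit only. Some genes that this rule names are not reported here.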

Additional observations from a re-analysis of the deposited data

How the results depend on the processing

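The number of genes past the threshold in WT lung was 0 with RLE or upper-quartile factors, without a filter, with stricter filters, with robust estimation, with limma voom quality weights, in protein-coding genes alone, and with a term for sex or for the protein-coding share. It was 24 with DESeq2 on the same genes and 74 with its default filters, 1 in a fit of the 5 WT libraries only and 1 with a term for the i5 index. Leaving out 1 library at a time gave 0 to 1659. The high value came without vehicle library 107, and the count was 1 without PFOA library 65 and 1 without KI vehicle library 135. For the difference from KO and KI it was 3 with DESeq2 under either filter, and 0 to 623 with 1 library left out, again highest without library 107 and 1 without PFOA library 65. Leaving out WT vehicle 122 together with KO vehicle 137, whose protein-coding share was also low, was added after the data were seen, as was leaving out each PFOA library or splitting by sex for the list medians.

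Of 69 genes named in the text, 2084 of 2180 values under the alternatives kept their sign and their side of the threshold and 84 passed it, 44 of them without library 107 and 38 with DESeq2. Another 12 changed sign, all in 7 genes. With a term for the protein-coding share the log2 fold changes were −0.47 in Sftpc, −0.24 in Ager, −0.041 in Cdh5 and −0.16 in Cpt1a. Without libraries 122 and 137 they were −0.52 in Sftpc, −0.17 in Ager and −0.29 in Cd3d. With 1 library left out at a time, Sftpc ranged from −0.54 to 1.37, Ager from −0.18 to 0.63, Cd3d from −0.31 to 1.45, Scgb3a1 from −1.05 to 2.61 and Myh6 from −0.29 to 2.31. The cause was not tested.

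Of the 29 list medians, 12 had opposite signs against libraries 107 and 122, 10 changed sign with a term for the protein-coding share, 4 with a term for the i5 index, 2 with a term for sex, 2 with upper-quartile factors, 1 with voom weights and 0 with RLE factors. With the term for the protein-coding share the radial spoke list was at −0.53 and the T cell list at 0.96, and with the i5 index they were at −1.08 and 0.60. No paired analysis was possible because the numbers in the labels name single mice and no number occurs in more than 1 group. Genes under 0.4 CPM rest on 3 counts or fewer in a library.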
